A study of Mus musculus with 10 samples.

Results

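Cytochrome c oxidase genes were measured in whole mouse hearts after forced treadmill training and in sedentary control hearts. The genes were chosen by symbol: protein-coding genes named Cox or Coa with a number, together with Sco1, Sco2 and Surf1. This gave 37 genes of the 56748 gene identifiers in the count tables, of which 21630 matched a protein-coding gene of the GENCODE M39 annotation. The 37 genes encode 7 subunits present in all tissues, 10 tissue isoforms of subunits, 1 supercomplex factor and 18 assembly factors, and 1 further gene, Cox5b-ps, is a retrogene that the annotation counts as protein coding. Symbols of 3 processed pseudogenes, Cox20-ps, Cox6c2 and Cox7c-ps1, also matched but were left out by their biotype. The training group was 5 male C57BL/6 mice, bought at an age of 8 weeks, that ran on a treadmill for 8 weeks at 15 m/min, 120 min per day and 5 days per week. The control group was 5 sedentary mice of the same strain, sex and age. Poly-A RNA of each whole heart, both atria included, was read as 1 strand-specific library per heart, so fewer cells of a type and less RNA per cell cannot be told apart in any value below.

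Cytochrome c oxidase, complex IV of the respiratory chain, passes electrons from cytochrome c to oxygen in the inner mitochondrial membrane. Its catalytic core is encoded by mitochondrial DNA, and the surrounding subunits are encoded in the nucleus, several of them by a pair of genes of which 1 is used mainly in heart and skeletal muscle and the other in most tissues. Assembly factors insert heme a and copper into the core subunits and bring the subunits together, and the heart, which depends on oxidative metabolism, is among the tissues richest in this complex.

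Between 29461697 and 35945417 reads were counted on genes in the training hearts and between 35196993 and 39431030 in the sedentary hearts. The counts were those of uniquely mapped reads on the strand that the kit reads, scaled here to the TMM-corrected library size (CPM). SE is the standard error of a log2 fold change. The groups were compared over 15454 genes by the quasi-likelihood F test of edgeR and Benjamini-Hochberg adjustment, and a gene was called at an adjusted p below 0.1. Of the 37 genes, 35 had enough counts to be tested. The testis isoform Cox8c had 0 reads in every heart, which allows a level of at most 0.102 CPM (3 counts in the smallest library, counting error only), and Cox7b2 had 35 reads over all hearts. Cardiomyocyte markers were high in every heart, with a summed level of 41953 to 44526 CPM after training and 43752 to 48747 CPM in the sedentary hearts. Markers of male germ cells were at or near 0, with Prm1 and Tnp1 at 0 in every heart.

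For 3 subunits the muscle isoform and its partner are separate genes, and the results below turn on these pairs. Their promoter sequences are therefore shown as the last 150 bases before the annotated start of transcription, taken from GRCm39 and written 5′ to 3′ on the gene's own strand. Capitals mark matches to the motifs of NRF1, GABP, YY1, ERR and MEF2, factors known from nuclear genes of mitochondria or from muscle genes. The intervals are chr7:127805560-127805709 for Cox6a2, chr5:115487041-115487190 for Cox6a1, chr7:29883419-29883568 for Cox7a1, chr9:79667163-79667312 for Cox7a2, chr7:140480360-140480509 for Cox8b and chr19:7194965-7195114 for Cox8a. Cox7a1 lies on the plus strand and the other 5 genes lie on the minus strand.
Cox6a2: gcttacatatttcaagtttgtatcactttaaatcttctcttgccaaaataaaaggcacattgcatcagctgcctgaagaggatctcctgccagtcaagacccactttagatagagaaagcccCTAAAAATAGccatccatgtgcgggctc
Cox6a1: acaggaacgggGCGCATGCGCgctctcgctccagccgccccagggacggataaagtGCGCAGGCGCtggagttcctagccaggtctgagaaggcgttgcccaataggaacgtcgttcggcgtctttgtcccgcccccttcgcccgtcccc
Cox7a1: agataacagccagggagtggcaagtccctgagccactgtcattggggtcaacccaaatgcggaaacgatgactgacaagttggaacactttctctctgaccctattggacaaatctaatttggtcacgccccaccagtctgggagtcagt
Cox7a2: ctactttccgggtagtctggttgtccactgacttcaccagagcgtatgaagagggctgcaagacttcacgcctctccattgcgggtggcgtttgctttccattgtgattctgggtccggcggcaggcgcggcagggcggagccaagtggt
Cox8b: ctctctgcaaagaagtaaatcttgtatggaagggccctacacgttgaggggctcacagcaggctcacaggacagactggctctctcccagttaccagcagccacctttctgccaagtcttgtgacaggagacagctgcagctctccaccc
Cox8a: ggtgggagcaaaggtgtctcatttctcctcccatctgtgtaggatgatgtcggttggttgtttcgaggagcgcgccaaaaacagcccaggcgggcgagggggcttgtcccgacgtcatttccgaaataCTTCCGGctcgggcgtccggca

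The muscle isoform Cox6a2 held a MEF2 match (CTA and TAG, 4 bases apart) that began 28 bases before its start, and its partner Cox6a1 held 2 NRF1 matches (GCGCA and GCGC, 1 base apart), which began 139 and 94 bases before the start. Cox8a held the ETS motif of GABP (CCGGAAG, here on the other strand) 22 bases before its start, while the 250 bases before Cox8b, Cox7a1 and Cox7a2 held none of the 5 motifs. Over 250 bases and both strands, an NRF1 match was found in 2 of the 35 tested genes, Cox17 and Cox6a1, and in 732 of 13562 promoters (5.4%) of tested protein-coding genes. The GABP motif was found in 5 of them, Coa4, Cox10, Cox16, Cox8a and Sco1, against 9.36% of promoters. In Cox10 it began 20 bases and in Cox16 12 bases before the start. The YY1 motif (AAGATGGC) was found in 0 of 35, against 1.63%, and the ERR motif (AAGGTCA) in Cox17 alone, against 3.24%. MEF2 matches stood before Cox6a2 and Cox20, against 3.03% of promoters.

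After training, 4 of the 35 tested genes were lower and 0 were higher. These were the subunit genes Cox6b1 and Cox8b and the assembly genes Cox10 and Cox16. The 4 genes are 11.4% of those tested, against 4.26% of all tested genes called lower and 2.75% called higher. At an unadjusted p below 0.05, 13 were lower and 0 higher, against 10.6% lower among all tested genes. The log2 fold change was below 0 in 32 of the 35 genes, against 49.9% of all tested genes, and their median was −0.10, against 0.00026 for all tested genes. Markers of cardiomyocytes had values of the same size as this median: 0 of 5 were called, and the log2 fold changes had a median of −0.11, at −0.15 for Actn2, −0.12 for Ryr2, −0.11 for Myh6, −0.10 for Tnnt2 and −0.00083 for Pln. Their part in the values of the complex IV genes was not tested. Among the complex IV genes the values ran from −0.85 for Cox16 to 0.012 for Cox15, so that most differences were small. In 3 genes, Cox10, Cox16 and Coa3, no training heart overlapped a sedentary heart, where 2.94% of all tested genes were lower without overlap.

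**Figure D1:**
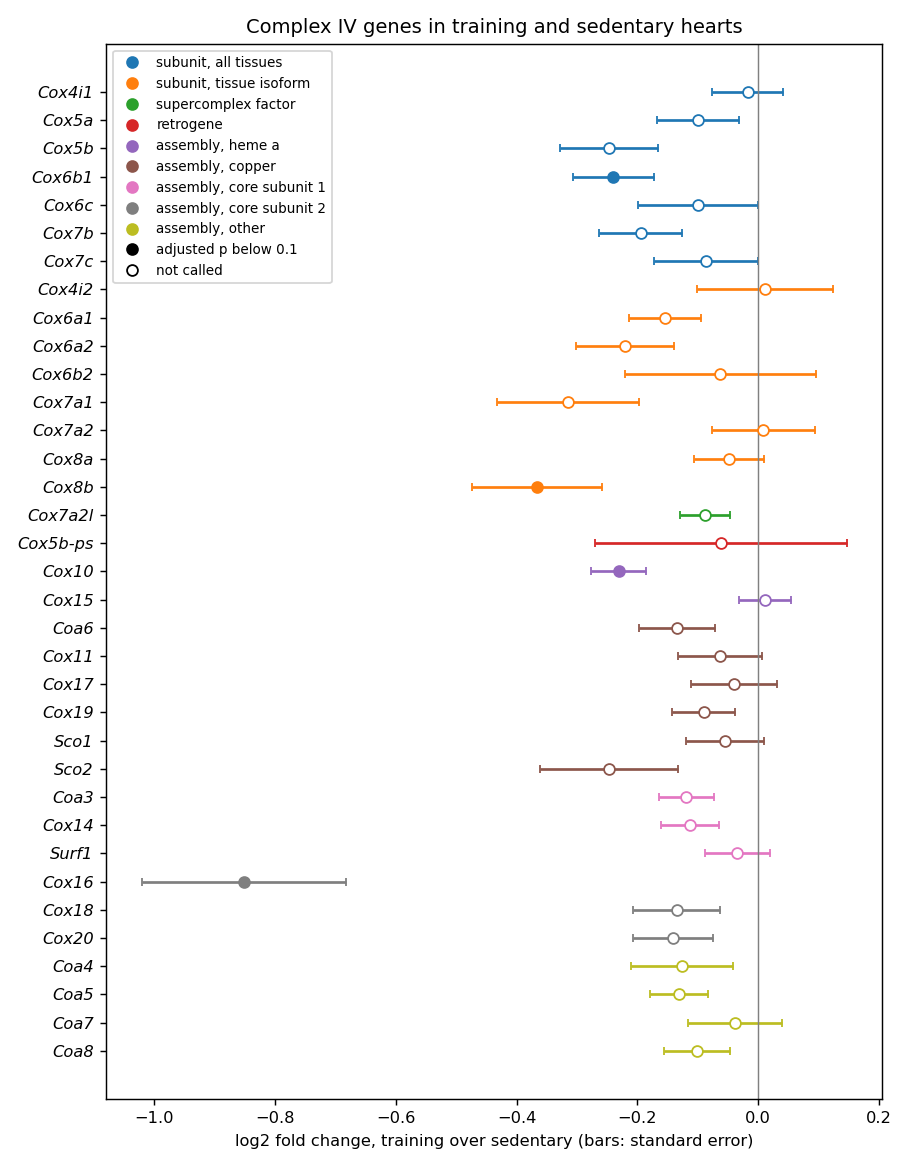
Log2 fold change of training over sedentary hearts for each of the 35 tested complex IV genes, with bars for the standard error (edgeR, 5 hearts per group) and colours for the role of the gene; filled points were called at an adjusted p below 0.1. Of the 35 points 32 lie left of 0, the 4 filled ones are Cox6b1, Cox8b, Cox10 and Cox16, and Cox16 lies apart from the rest at −0.85.

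The hearts of the training group did not all lie below the controls. Relative to each gene's mean over all hearts, the median complex IV gene of training heart 1 was 0.11 higher on the log2 scale, with 82.9% of the 35 genes above their mean. In training hearts 2 to 5 the same median was −0.049, −0.072, −0.11 and −0.18. The sedentary hearts lay between 0.032 and 0.10. Training heart 1 was thus above every sedentary heart and the other 4 training hearts were below all of them. The library of training heart 1 also had the lowest reverse-strand share of the 10 hearts, 94.9% against 95.3 to 95.6%, and the highest share of reads on no gene, at 4.89%. It differed from the other training libraries by a chi-square per degree of freedom of 18.2 to 24.8, where those differed among themselves by 6.02 to 11.6 and the sedentary libraries by 8.44 to 27.8. The part of these library differences in its values was not tested. For the subunits alone, training heart 1 was at 0.16 and training heart 5 at −0.31, while for the assembly factors these hearts were at 0.087 and −0.087. Sedentary heart 2 was at 0.14 for the subunits and 0.092 for the assembly factors. Without training heart 1, 9 of the genes were lower and all 35 had a log2 fold change below 0, at a background of 3.98% of tested genes called lower. The genes called then were Cox10, Cox14, Cox16, Cox20, Cox5b, Cox6b1, Cox7a1, Cox7b and Cox8b. Leaving out sedentary heart 1 gave 7 genes called lower (background 5.37%), and leaving out training heart 2 gave 4 (4.55%). Leaving out any other single heart lowered the number to 2 (1.91 to 3.06%).

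Among the 7 subunits present in all tissues, all 7 had a log2 fold change below 0, against 49.9% of all tested genes, with a median of −0.10. Of the 7, 1 was called lower (14.3%, against 4.26% of all tested genes). Cox6b1 encodes a subunit on the side of the complex that faces the intermembrane space (ENSMUSG00000036751, chromosome 7 of GRCm39, 30316282 to 30325616). It was at 512, 465, 446, 435 and 375 CPM in training hearts 1 to 5 and at 495, 553, 523, 536 and 530 CPM in sedentary hearts 1 to 5. Training heart 1 lay within the sedentary range and the other 4 training hearts below it. The group means were 446 ± 49.4 CPM (SD, n = 5) and 527 ± 21.3 CPM (SD, n = 5). Its log2 fold change was −0.24 (SE 0.067, adjusted p = 0.0678 in edgeR, Benjamini-Hochberg). The call held in 3 of 10 fits without a single heart (those lacking sedentary heart 1 or training hearts 1 and 2, each alone), with adjusted p between 0.0278 and 0.144 in the same edgeR test. In TPM (from RSEM, without TMM factors) the means were closer, at 1040 ± 49.2 with training and 1090 ± 24.5 in sedentary hearts (SD, n = 5 each). There training heart 1, at 1114 TPM, was above every sedentary heart. Training heart 2, at 1060 TPM, lay within the sedentary range of 1051 to 1113 TPM. With TMM factors, the RSEM counts of Cox6b1 gave a log2 fold change of −0.24 (adjusted p = 0.0762 in edgeR, Benjamini-Hochberg).

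Cox4i1, Cox6a2 and Cox5b had the highest levels of the nuclear subunit genes per gene length, at 1864, 1495 and 1337 TPM (from RSEM, scaled to gene length and depth, mean of 10 hearts). Cox4i1 encodes the common form of subunit 4, which carries a nucleotide binding site that regulates the enzyme. It was at 1260, 1123, 1066, 1118 and 1010 CPM in the training hearts and at 1098, 1231, 1082, 1114 and 1121 CPM in the sedentary hearts. These ranges overlapped over most of their width, and the log2 fold change was −0.018 (SE 0.059). Cox5b, which encodes a zinc-binding subunit on the matrix side, was at 383, 329, 339, 327 and 263 CPM in the training hearts and at 357, 389, 367, 415 and 420 CPM in the sedentary hearts. For this gene the log2 fold change of −0.25 (SE 0.081) was as large as that of Cox6b1, but its adjusted p was 0.113 in edgeR, Benjamini-Hochberg. Training heart 1 was the only training heart inside the sedentary range of Cox5b. The remaining subunits of this group, Cox5a, Cox6c, Cox7b and Cox7c, had log2 fold changes between −0.19 and −0.086, and none was called.

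Of the 10 tissue isoforms 8 were tested, with 6 below 0 and a median of −0.11. Cox8b encodes the muscle form of subunit 8, a small membrane subunit (ENSMUSG00000025488, chromosome 7 of GRCm39, 140477069 to 140480359). It was at 275, 205, 226, 202 and 156 CPM in the training hearts and at 254, 283, 273, 287 and 275 CPM in the sedentary hearts. Training heart 1 lay among the sedentary hearts and the other 4 lay below all of them. The means were 213 ± 43.1 CPM (SD, n = 5) and 274 ± 12.5 CPM (SD, n = 5), a difference of −22.4%. The log2 fold change was −0.37 (SE 0.11, adjusted p = 0.0792 in edgeR, Benjamini-Hochberg), and the call held in 2 of the 10 fits without 1 heart (training heart 1 or sedentary heart 1), with adjusted p between 0.0178 and 0.166 in that test. Its exons share 57.1% of their bases with Psmd13 on the opposite strand, and 0.318% of the reads on Cox8b were from that strand. Its partner of most tissues, Cox8a, was at 72.8, 67.6, 70.9, 65.5 and 56.5 CPM in the training hearts and between 68.0 and 69.9 CPM in the sedentary hearts. The log2 fold change of Cox8a was −0.048 (SE 0.058, adjusted p = 0.694 in edgeR, Benjamini-Hochberg).

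Cox7a1 encodes the muscle form of subunit 7a, and it was at 379, 297, 308, 272 and 208 CPM in the training hearts and at 337, 413, 363, 363 and 348 CPM in the sedentary hearts. The log2 fold change was −0.31 (SE 0.12), with an adjusted p of 0.155 in edgeR, Benjamini-Hochberg. Again training heart 1 lay within the sedentary range and the other 4 training hearts below it. Cox7a2, the form of most tissues, was at 220, 173, 173, 165 and 155 CPM in the training hearts and at 181, 191, 181, 175 and 152 CPM in the sedentary hearts. Training heart 1 was the highest of the 10 hearts for Cox7a2, and the log2 fold change was 0.0084 (SE 0.085).

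Cox6a2 encodes the muscle form of subunit 6a, which helps to hold the complex as a dimer. It was at 839, 783, 805, 807 and 667 CPM in the training hearts and at 774, 879, 850, 1024 and 1019 CPM in the sedentary hearts. For this gene the log2 fold change was −0.22 (SE 0.081, adjusted p = 0.150 in edgeR, Benjamini-Hochberg). Cox6a1, the partner of most tissues, was at 50.0, 47.6, 49.1, 47.8 and 39.5 CPM in the training hearts and at 51.4, 49.4, 55.2, 53.8 and 50.6 CPM in the sedentary hearts, for a log2 change of −0.15 (SE 0.060, adjusted p = 0.171 in the same edgeR test). Both genes of the subunit 6a pair thus had values below 0 that did not pass the test. Cox4i2, the lung form of subunit 4, lay between 4.32 and 5.38 CPM with training and between 3.81 and 6.07 CPM in the sedentary hearts, with a log2 fold change of 0.011 (SE 0.11). Cox6b2, the testis form of subunit 6b, lay between 1.44 and 2.28 CPM over all hearts and had a log2 fold change of −0.063 (SE 0.16).

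**Figure D2:**
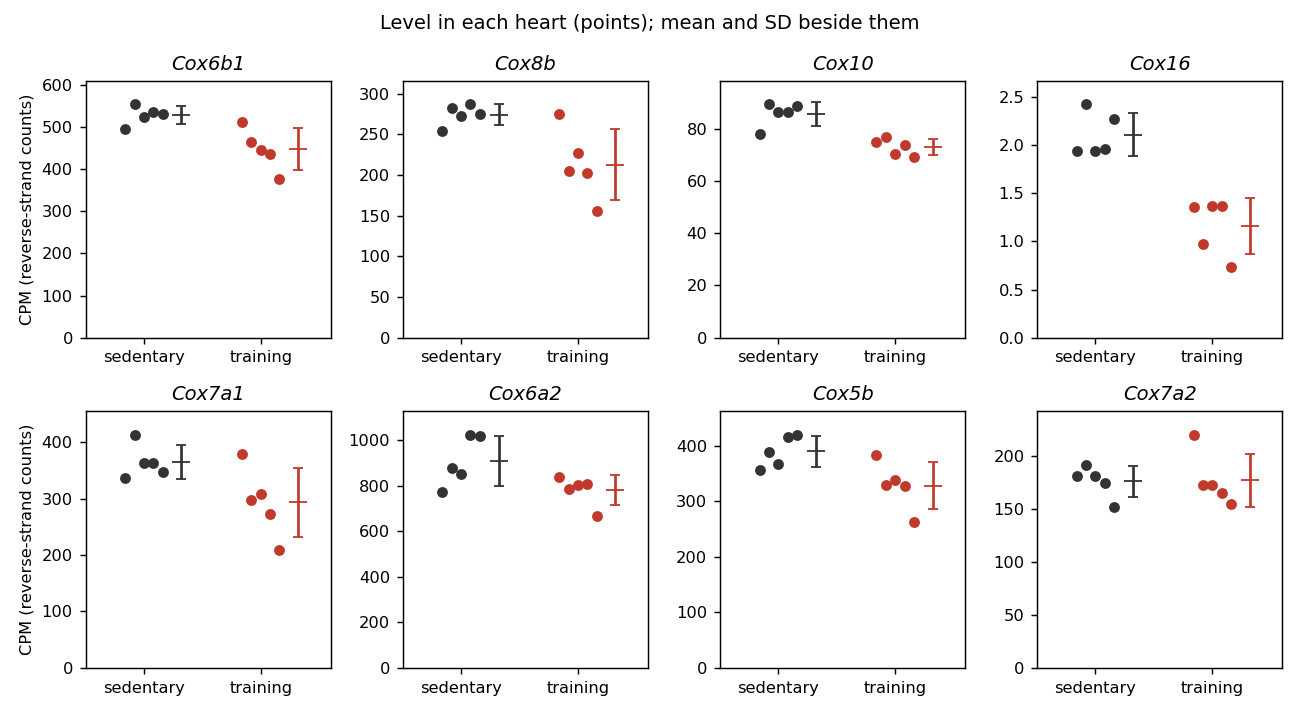
Level of 8 subunit and assembly genes in each heart, in CPM of reverse-strand counts on axes that start at 0, with points for hearts and the mean and SD of each group beside them. For Cox6b1, Cox8b, Cox7a1 and Cox5b, 4 training hearts lie below the sedentary hearts and training heart 1 among them; for Cox10 and Cox16 the groups do not overlap.

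The balance within the isoform pairs was compared as the share of 1 gene in the summed TPM of its pair, which compares genes per length and does not depend on how libraries are scaled. The 4 pairs were tested by permuting the group labels of the hearts in every possible way (exact test, two-sided), with Benjamini-Hochberg adjustment over the 4 pairs. Cox7a1 held 71.6, 71.7, 73.1, 70.8 and 65.6% of the subunit 7a pair in training hearts 1 to 5 and 74.3, 76.6, 75.7, 77.0 and 78.5% in sedentary hearts 1 to 5. Every training heart, heart 1 included, was below every sedentary heart. The mean share fell from 76.4 ± 1.54% (SD, n = 5) to 70.6 ± 2.91% (SD, n = 5), a difference of −5.84 percentage points (exact p = 0.00794, the smallest this design can give, adjusted p = 0.0159). The log2 ratio of Cox7a1 to Cox7a2 was 0.43 lower, at 1.27 against 1.70.

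Cox8b held 84.8, 82.0, 83.1, 82.5 and 80.0% of the subunit 8 pair in the training hearts and 85.0, 86.4, 86.1, 86.6 and 85.8% in the sedentary hearts. The groups did not overlap here either, although training heart 1 and sedentary heart 1 were close. The mean share fell from 86.0 ± 0.635% to 82.5 ± 1.74% (SD, n = 5 each), a difference of −3.48 percentage points (exact p = 0.00794, adjusted p = 0.0159). With any single heart left out the difference lay between −6.49 and −4.60 points for Cox7a1 and between −4.07 and −2.87 points for Cox8b. Computed from the uniquely mapped counts per effective length, it was −6.19 points for Cox7a1 and −2.84 points for Cox8b.

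The other 2 pairs did not pass. Cox6a2 held 93.3 ± 0.0935% of the subunit 6a pair with training and 93.5 ± 0.812% in the sedentary hearts (SD, n = 5 each), a difference of −0.230 points (exact p = 0.563, adjusted p = 0.751). Without 1 heart, this difference ran from −0.454 to 0.0062 points. The sedentary hearts, between 92.6 and 94.5%, spread more widely than the training hearts, between 93.2 and 93.4%. Cox4i2 held 0.420 ± 0.0377% of the subunit 4 pair with training and 0.418 ± 0.0512% in the sedentary hearts (SD, n = 5 each, exact p = 0.929). In these hearts the muscle forms of subunits 6a, 7a and 8 therefore made up most of the RNA of their pairs in both groups, and the shares of those of subunits 7a and 8 were lower after training. Whether the shares of Cox6a2 and Cox7a1 differed in their response was not tested.

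**Figure D3:**
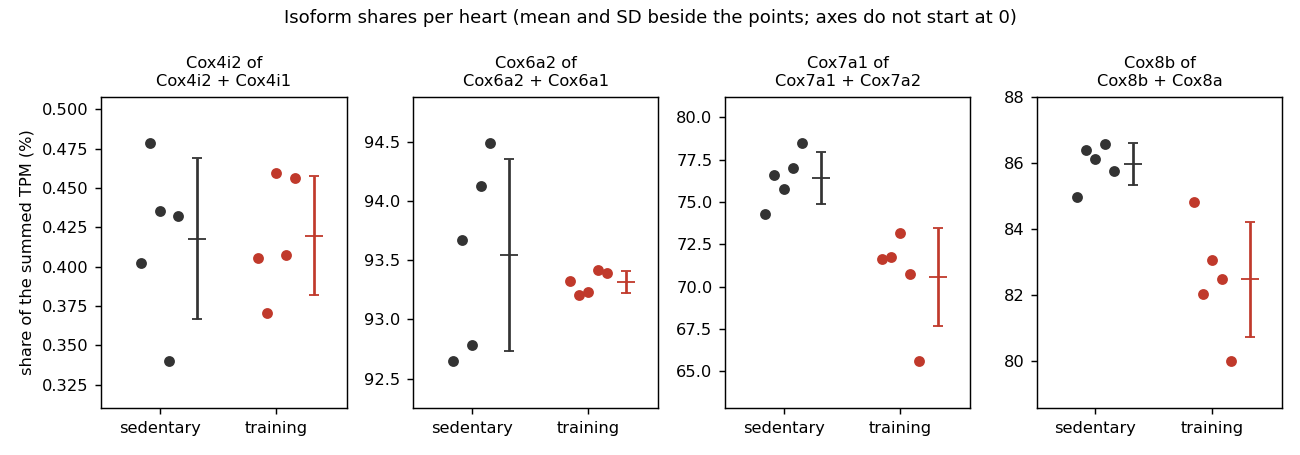
Share of 1 isoform in the summed TPM of its pair in each heart, in percent on axes that do not start at 0, with the mean and SD of each group beside the points. The Cox7a1 share (65.6 to 73.1% against 74.3 to 78.5%) and the Cox8b share (80.0 to 84.8% against 85.0 to 86.6%) do not overlap between the groups, while those of Cox4i2 and Cox6a2 do.

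Some marker genes differed between the groups beside these shares. Of the 7 atrial markers Dkk3 and Sln were called higher after training, and all 7 had log2 fold changes above 0 (0.37 to 0.83, median 0.50). The summed atrial level was 5161 to 7775 CPM after training and 2847 to 6973 CPM in the sedentary hearts. Among 4 fibroblast markers Pdgfra was higher (log2 fold change 0.24), and all 4 had values above 0, while of 5 smooth muscle and pericyte markers Tagln was higher (0.54) and Rgs5 lower (−0.18). These calls had adjusted p of 0.0627, 0.0618 and 0.0814 in edgeR, Benjamini-Hochberg. The summed endothelial markers lay between 622 and 674 CPM after training and between 686 and 719 CPM in the sedentary hearts, with 0 of 4 genes called. Ckm, the muscle creatine kinase that heart and skeletal muscle both express, had a log2 fold change of −0.22 (adjusted p = 0.0282 in edgeR, Benjamini-Hochberg). Actn3, the other tested skeletal muscle marker, went the other way at 0.49 and was not called (adjusted p = 0.252 in the same edgeR test). The fast skeletal myosin genes Myh1, Myh2 and Myh4 were at most 0.125 CPM. Brown adipocytes also use Cox7a1 and Cox8b, and their marker Ucp1 lay between 0 and 6.35 CPM. The summed brown adipocyte markers were at 23.4 to 39.3 CPM with training and 22.6 to 26.9 CPM in the sedentary hearts. The 4 white adipocyte markers had log2 fold changes from 0.45 to 1.12, with 0 called. Their summed level was 16.2 to 142 CPM with training and 14.0 to 115 CPM in the sedentary hearts. The part of these markers in the isoform shares was not tested. With a score of the atrial markers as a covariate, 0 of the 35 complex IV genes and 0.582% of all tested genes were called lower, and the median of the 35 was −0.11. In that fit the log2 fold changes of the 4 called genes were −0.15 for Cox10, −0.79 for Cox16, −0.20 for Cox6b1 and −0.38 for Cox8b (adjusted p between 0.198 and 0.408, edgeR with Benjamini-Hochberg adjustment).

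Cox7a2l, listed by its role as a factor that joins complex III and complex IV in a supercomplex, was at 102 ± 5.42 CPM after training. In the sedentary hearts it was at 109 ± 2.20 CPM (SD, n = 5 each), with a log2 fold change of −0.088 (SE 0.041). Whether its protein has this role in the strain used was not measured. The retrogene Cox5b-ps lay between 0.526 and 1.02 CPM, with a log2 fold change of −0.062 (SE 0.21), and its sequence is close to that of Cox5b, so that reads cannot always be assigned to either.

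Of the 18 assembly genes, all tested, 17 had a log2 fold change below 0, against 49.9% of all tested genes, and the median was −0.12. Lower calls were made for 2 of the 18 (11.1%, against 4.26% of all tested genes). The genes Cox10 and Cox15 act in the synthesis of heme a, the cofactor of the catalytic core. Cox10 encodes the farnesyltransferase of the first step (ENSMUSG00000042148, chromosome 11 of GRCm39, 63853131 to 63970305). It was at 74.8, 76.7, 70.3, 73.9 and 69.4 CPM in the training hearts and at 78.0, 89.4, 86.3, 86.3 and 88.6 CPM in the sedentary hearts. Every training heart was below every sedentary heart, sedentary heart 1 being the nearest to them. The means were 73.0 ± 3.08 CPM and 85.7 ± 4.53 CPM (SD, n = 5 each), with a log2 fold change of −0.23 (SE 0.046, adjusted p = 0.0216 in edgeR, Benjamini-Hochberg). The call held in all 10 fits without 1 heart, with adjusted p between 0.00759 and 0.0645 in the same edgeR test. Cox15, which encodes the oxygenase of the next step, had a log2 fold change of 0.012 (SE 0.043), with 44.3 ± 1.94 CPM after training and 43.9 ± 1.63 CPM in the sedentary hearts (SD, n = 5 each). The enzymes of these consecutive steps thus differed in their values, and the difference between them was not tested.

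Of the 6 genes of copper delivery, Coa6, Cox11, Cox17, Cox19, Sco1 and Sco2, 0 were called, and their log2 fold changes lay between −0.25 and −0.040. Coa3, Cox14 and Surf1 act on the newly made core subunit 1. Coa3 was at 40.3, 40.3, 38.3, 36.7 and 35.0 CPM in the training hearts and at 40.6, 42.5, 41.9, 41.1 and 40.9 CPM in the sedentary hearts. These values did not overlap, but the gap was narrow and the log2 fold change was −0.12 (SE 0.046, adjusted p = 0.166 in edgeR, Benjamini-Hochberg). Cox14 had a log2 fold change of −0.11 and Surf1 of −0.035. Cox18, which inserts the tail of core subunit 2 into the membrane, and Cox20, a chaperone of the same subunit, had −0.14 each. Of the other assembly genes, Coa4, Coa5, Coa7 and Coa8 had values between −0.13 and −0.038, and none was called.

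Cox16, which acts in the copper loading of core subunit 2, had the lowest log2 fold change of the complex IV genes and a low count. It lies on chromosome 12 of GRCm39 from 81401480 to 81531914 (ENSMUSG00000091803). It was at 1.36, 0.974, 1.36, 1.37 and 0.730 CPM in the training hearts and at 1.94, 2.42, 1.94, 1.96 and 2.27 CPM in the sedentary hearts, from 585 reads over all hearts. The groups did not overlap, and the log2 fold change was −0.85 (SE 0.17, adjusted p = 0.0216 in edgeR, Benjamini-Hochberg). The call held in all 10 fits without 1 heart. The annotated exons of Cox16 share 56.6% of their bases (2130 of 3764) with S2bpcox16, a gene on the same strand that joins exons of Synj2bp and Cox16, and a read on shared bases is counted for neither gene. The 585 reads were 12.7% of the expected counts that RSEM gave to Cox16.

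In the expected counts, Cox16 had a log2 fold change of −0.12 (adjusted p = 0.30 in edgeR, Benjamini-Hochberg). Its TPM was 29.0, 31.3, 29.2, 29.6 and 26.7 in the training hearts and 29.8, 28.5, 29.3, 28.5 and 26.0 in the sedentary hearts, and these overlapped between 26.7 and 29.8. The call on Cox16 thus rests on unique reads alone. Synj2bp, which lies before it, had a log2 fold change of −0.0081, and S2bpcox16 had at most 0.115 CPM of unique reads.

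**Figure D4:**
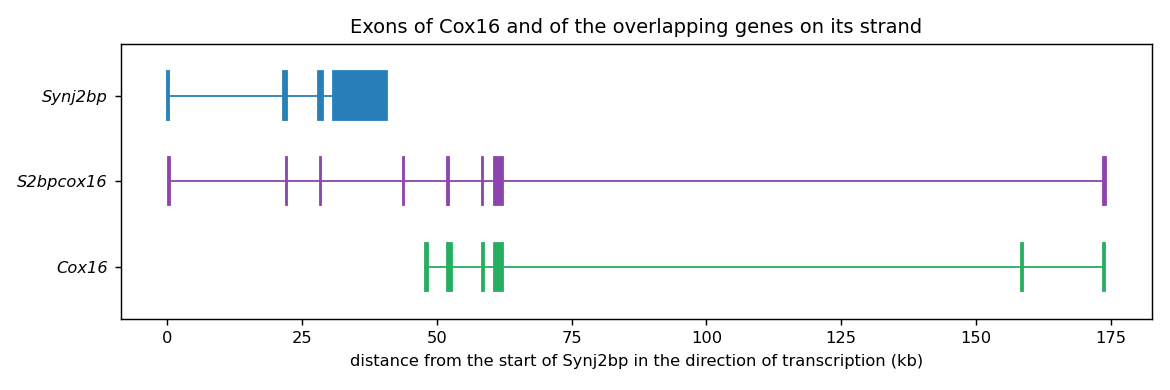
Exons (boxes) of Cox16 and of the genes Synj2bp and S2bpcox16 on the same strand, by distance in kilobases from the start of Synj2bp in the direction of transcription; thin lines join the exons of a gene, and the shortest exons are widened to be visible. S2bpcox16 has exons at the places of most Cox16 exons, and 56.6% of the exon bases of Cox16 are shared with it.

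Reads shared with other genes touched further members. In 27 of the 35 tested genes, the uniquely mapped counts were at least 90% of the RSEM expected counts, and in 8 they were less. Beside Cox16, the lowest were Cox17 at 14.0%, Sco2 at 23.0%, Cox7a2l at 59.6% and Cox7c at 63.5%. Sco2, a copper chaperone of core subunit 2, shares 97.1% of its exon bases with Tymp on the same strand and 50.0% with Ncaph2 on the opposite strand, and 33.4% of the reads on Sco2 in both strands were from that opposite strand. It was at 3.6, 2.75, 2.44, 2.86 and 2.95 CPM in the training hearts and at 3.48, 3.39, 3.59, 3.84 and 3.01 CPM in the sedentary hearts. For this gene the log2 fold change was −0.25 with an adjusted p of 0.248 in the unique counts, and −0.23 with an adjusted p of 0.0496 in the expected counts (edgeR with Benjamini-Hochberg adjustment in each). Its TPM in the expected counts lay between 12.6 and 14.2 with training and between 13.5 and 14.9 in the sedentary hearts. The size of the difference was thus nearly the same in both kinds of count, while the test passed in the expected counts alone. Since the strand setting of RSEM is not given in the sources used here, the expected counts of Sco2 may hold reads of the opposite strand. Cox17, which brings copper to the assembly site, had −0.040 in the unique and −0.19 in the expected counts, and it passed in neither. In the expected counts 4 of 35 genes were called lower, Cox10, Cox6b1, Cox8b and Sco2, at a background of 3.86%. Cox10, Cox6b1 and Cox8b were called in both kinds of count.

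**Figure D5:**
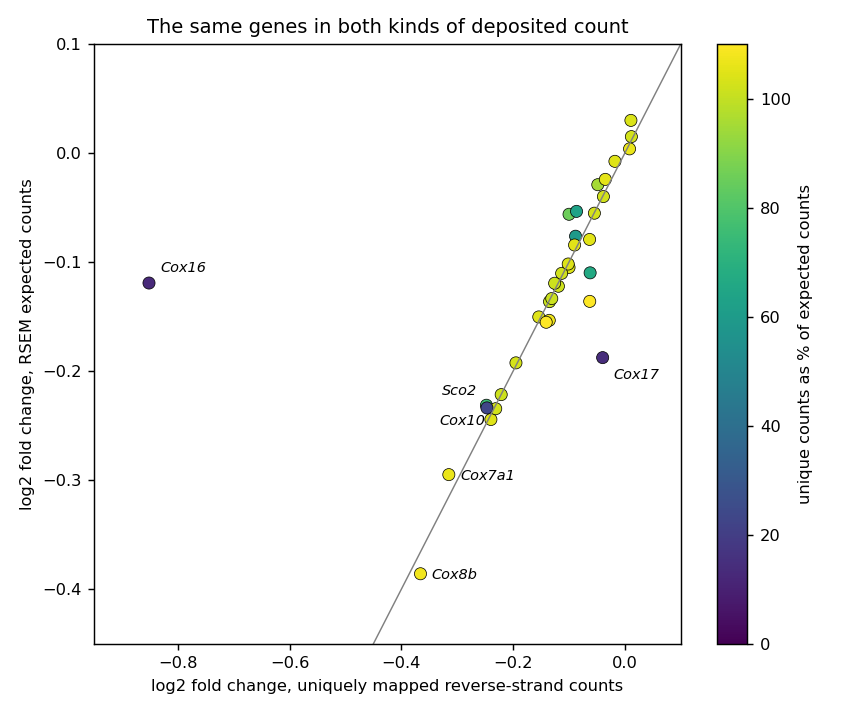
Log2 fold change of the 35 tested genes in uniquely mapped reverse-strand counts (horizontal) and in RSEM expected counts (vertical), coloured by the unique counts as a percentage of the expected counts; the grey line marks equal values. Most genes lie near the line, and Cox16 and Cox17, with 12.7% and 14.0% of their expected counts, lie farthest from it.

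DESeq2's Wald test on the same counts called 8 genes lower and 0 higher, Cox10, Cox16, Cox5b, Cox6a2, Cox6b1, Cox7a1, Cox7b and Cox8b, at a background of 5.54% of genes called lower. The 4 genes of edgeR's test were among them. All 3 muscle isoforms of the pairs, Cox6a2, Cox7a1 and Cox8b, were among the 8 genes and none of their partners was. For subunit 6a this does not set the 2 genes apart. Cox6a2 had −0.22 (adjusted p = 0.0938) and Cox6a1 −0.15 (adjusted p = 0.146) in that Wald test. The Cox6a2 share differed by −0.230 points (exact permutation p = 0.563). On RSEM expected counts, a setting chosen after seeing the data, DESeq2's Wald test did not call Cox7a1 (adjusted p = 0.111).

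The core subunits of mitochondrial DNA and other genes of the pathway were taken from a written list of 25 genes that carry other symbols, of which 21 were tested. Of these 17 had a log2 fold change below 0, 2 (9.52%, against 4.26% of all tested genes) were called lower and 0 higher, and the median was −0.16. The 2 were Cycs, cytochrome c itself, with −0.26 (SE 0.074, adjusted p = 0.0714), and Higd2a, a factor of supercomplex assembly, with −0.20 (SE 0.063, adjusted p = 0.0970), both in edgeR with Benjamini-Hochberg. The unique reads of Cycs were 31.0% of its expected counts. In the expected counts Cycs passed and Higd2a did not, with adjusted p of 0.0472 and 0.119 (edgeR, Benjamini-Hochberg). Ndufa4, now counted as a subunit of complex IV, had −0.14 and was not called. Core subunit 1, mt-Co1, took 67777 ± 2768 CPM after training and 72030 ± 5440 CPM in the sedentary hearts (SD, n = 5 each), with a log2 fold change of −0.088 (adjusted p = 0.508 in edgeR, Benjamini-Hochberg). The other core subunits, mt-Co2 and mt-Co3, had 83 and 26 uniquely mapped reads over all 10 hearts, and their values come from RSEM alone. At 62153 ± 3362 and 61370 ± 8500 TPM for mt-Co2 and 7352 ± 633 and 7345 ± 1552 TPM for mt-Co3, training before sedentary (SD, n = 5 each), the groups differed by less than their spread. Genes of mitochondrial DNA held 20.4 to 21.9% of the uniquely mapped counts with training and 20.7 to 23.6% in the sedentary hearts. These shares nearly lack mt-Co2 and mt-Co3. In the expected counts of RSEM the shares were 25.3 to 27.4% with training and 25.1 to 28.9% in the sedentary hearts.

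Other complexes of the respiratory chain were set beside complex IV by their counts. Of 37 complex I subunit genes 32 had a log2 fold change below 0 and 10 were called lower (27%, against 4.26% of all tested genes), with a median of −0.15. Of 18 tested ATP synthase genes 17 were below 0 and 1 was called lower (5.56%, near the share of all tested genes), with a median of −0.071. In complex I too, training heart 1 lay above the mean, with a median deviation of 0.14, while training hearts 2 to 5 lay between −0.25 and −0.060. A difference between the complexes was not tested.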

How the data were processed

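RNA of 10 whole mouse hearts, 5 training and 5 sedentary, was prepared with a poly-T based directional kit and read from 1 end for 100 bases, all libraries in 1 pool. Alignment by the authors used STAR 2.7.10a and GRCm39, and for each gene and strand they deposited the raw count of reads with a unique position. They also deposited expected counts and TPM from RSEM 1.3.3, which shares out reads that match several genes; its strand setting is not given in the sources used here. None of these counts was normalized, and TPM are scaled to gene length and depth.

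Counts of the reverse strand (median 95.4% of both strands) entered edgeR 4.0.16 under R 4.3.3, with TMM factors after filterByExpr, the F test on quasi-likelihood and Benjamini-Hochberg adjustment. Genes with an FDR below 0.1 were called. Lines that name no gene, among them multimapping reads at 17.9 to 19.2%, were left out. Expected counts were rounded to whole numbers, and DESeq2 1.42.0 was an alternative. Within groups the libraries varied beyond counting noise (chi-square per degree of freedom 6.02 to 27.8), and preparation batches of the hearts are not given in the sources used here. The numbers that the labels give to mice did not pair the samples (correlation of residuals between hearts of the same number, −0.097 to 0.16). Symbols and positions came from GENCODE M39 by identifier, which matched 56017 of 56748, and exon overlaps used transcripts present in the deposited tables. Promoters were read from the GRCm39 genome at the start of the canonical transcript.

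Genes named with values per heart were those called, both genes of the 4 isoform pairs, those whose call differed between kinds of count, and the 3 subunits of highest TPM. Coa3 was added after its values were seen. The members, lists and tests were chosen with earlier results of these data known. The steps were tested on simulated data. Alternatives were other normalizations, filters, kinds of count, strands, a replicate block, a gene length trend, an atrial score and each heart left out.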

Additional observations from a re-analysis of the deposited data

Results flagged for a closer look

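In 7 of the 78 groups of 5 hearts examined, that is the 35 tested genes and 4 isoform shares in each condition, the highest or lowest heart stood apart from the others by Dixon's criterion, where chance gives 3.90. Training heart 1 was the high heart in 4 of them: Coa4 at 7.16 CPM against 5.48 to 5.87 CPM in the other training hearts, Cox14 at 69.4 CPM against 58.8 to 61.8 CPM, Cox15 at 47.6 CPM against 42.7 to 44.0 CPM, and Cox7a2 at 220 CPM against 155 to 173 CPM. For Cox6a1, training heart 5 was the low heart, at 39.5 CPM against 47.6 to 50.0 CPM. In the sedentary group, heart 1 was low for Cox10 at 78.0 CPM against 86.3 to 89.4 CPM, and heart 2 was high for Cox4i1 at 1231 CPM against 1082 to 1121 CPM.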

How the results depend on the processing

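The count of 4 complex IV genes called lower was 8 with DESeq2's Wald test (5.54% of all genes called lower), 8 without a filter on low counts (2.27%), 2 at an FDR below 0.05 (2.06%) and 0 with the atrial score as a covariate (0.582%). It was 8 with DESeq2 on RSEM expected counts (5.26%), which was chosen after seeing the data. Fits without a single heart called between 2 and 9 genes: 9 without training heart 1 (3.98%), 7 without sedentary heart 1 (5.37%), 4 without training heart 2 (4.55%) and 2 without any other heart (1.91 to 3.06%). Over the 22 settings their median log2 fold change ran from −0.16, without training heart 1, to −0.049. With library totals alone, the median of the 35 genes was −0.049 and that of all tested genes 0.053, the 4 calls held, and the split of all called genes turned from 425 higher and 659 lower to 1029 higher and 339 lower. Removing a gene length trend gave a median of −0.067, with 28 of the 35 genes below 0. The number below 0 was 27 with library totals alone, against 32 with TMM factors. Cox7a1 was called in 4 of 23 alternatives, Cox5b in 5 and Cox6a2 in 4. With the mouse number as a replicate block, edgeR called 5 genes lower (4.33% of all tested genes), Cox7a1 being added. As a block, an exact sign-flip test cannot go below p = 0.0625, and the differences of −5.84 points for the Cox7a1 share and −3.48 points for the Cox8b share had an adjusted p of 0.125 there. The causes of these changes were not tested. Counts of Cox16, Cox7b2, mt-Co2 and mt-Co3 were too low or too incomplete to set small differences apart.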
